A study of Mus musculus with 4 samples.

Results

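The transcripts described here are 10 protein-coding messages of the mouse mitochondrial genome: mt-Nd1, mt-Nd2, mt-Nd3, mt-Nd4, mt-Nd5, mt-Cytb, mt-Co1, mt-Co2, mt-Co3 and mt-Atp6. They were listed by gene symbol, and all 10 were present among the 32285 genes counted in every library. They are 10 of the 13 features whose symbols start with mt-. Of the other 3, mt-Atp8 and mt-Nd6 had few counts: mt-Atp8 had 10, 13, 3 and 11 unique molecular identifiers (UMIs, one per captured RNA molecule), mt-Nd6 had 1, 8, 7 and 24, against 112, 158, 144 and 407 for mt-Nd4l, in the in vivo methanol-fixed, post-mortem methanol-fixed, in vivo unfixed and post-mortem unfixed libraries.

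The mitochondrial genome is a small circle that is copied into long RNAs, which are cut at the transfer RNAs between the genes and given short poly(A) tails inside the organelle. Its messages encode core subunits of the respiratory chain and ATP synthase, while the remaining subunits of the same complexes are encoded in the nucleus, made in the cytoplasm and imported. Brain relies heavily on this pathway for ATP. Because the messages stay inside mitochondria, they are foreign to a clean preparation of nuclei, and their share of a barcode's molecules is widely used as a filter for cytoplasm or debris.

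The study profiled single nuclei from brains, without the cerebellum, of wild-type C57BL/6 mice aged 10 weeks. In vivo samples were removed by craniotomy under isoflurane and post-mortem samples after cervical dislocation, then frozen on dry ice for 10 minutes. Nuclei from at most 50 mg of tissue were either fixed in 80% methanol at -20 °C for 30 minutes or left unfixed, and made into SeekOne DD 3′ libraries, a droplet method that reads RNA next to its poly(A) tail. There was 1 library for each of the 4 combinations, so no difference between groups has a replicate check, and an in vivo against post-mortem difference cannot be told apart from a difference between animals. The labels do not say whether the fixed and unfixed nuclei of one harvest came from the same brain.

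The files held 7650, 10843, 17862 and 14483 barcodes and 75023578, 82408017, 65591829 and 64312917 UMIs in the in vivo methanol-fixed, post-mortem methanol-fixed, in vivo unfixed and post-mortem unfixed libraries. Median depth was 8378.5 and 6511 UMIs per barcode in the fixed libraries and 3204 and 3968 in the unfixed ones, and pairs of libraries shared 61 to 210 barcode sequences. All intervals below are 95% intervals that cover counting error only; they say nothing of the spread between animals or preparations.

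All 10 genes lie on the same strand of chromosome M in the mm10 build, the build named in the submitters' processing notes. Each is a single exon. The last 30 bases of 6 of them are shown, because a 3′ kit samples RNA at this end and because the genes differ in how they finish; capitals mark the stop codon, or the lone T of a stop that only the added poly(A) tail completes. The 6 are the 3 messages with the most UMIs in the fixed libraries (mt-Co3, mt-Cytb and mt-Co1), the least counted one (mt-Nd3), and those with the smallest and largest difference between fixed and unfixed post-mortem nuclei once high-share barcodes were removed (mt-Nd1 and mt-Nd4).
mt-Nd1 (chrM:2751-3707): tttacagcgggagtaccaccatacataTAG
mt-Nd3 (chrM:9459-9806): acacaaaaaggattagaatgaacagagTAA
mt-Nd4 (chrM:10167-11544): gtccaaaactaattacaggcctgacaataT
mt-Cytb (chrM:14145-15288): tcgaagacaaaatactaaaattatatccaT
mt-Co1 (chrM:5328-6872): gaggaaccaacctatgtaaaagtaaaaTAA
mt-Co3 (chrM:8607-9390): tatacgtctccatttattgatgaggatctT
The remaining members lie at chrM:3914-4951 (mt-Nd2), chrM:7013-7696 (mt-Co2), chrM:7927-8607 (mt-Atp6) and chrM:11742-13565 (mt-Nd5). Some share bases with a neighbour: mt-Atp8 and mt-Atp6 by 43, mt-Atp6 and mt-Co3 by 1, mt-Nd4l and mt-Nd4 by 7, and mt-Nd5 and mt-Nd6, on opposite strands, by 14.

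The annotation of the same build also holds a stretch of nuclear DNA on chromosome 1, minus strand, with near-identical copies of mt-Co1, mt-Co2, mt-Atp6, mt-Co3, mt-Nd3 and mt-Nd4. The mt-Nd3 copy matched at 344 of 345 aligned bases. The mt-Nd4 copy matched at 876 of 876, but these are bases 1 to 876 of a gene of 1378, so the annotated copy does not hold the 3′ end of mt-Nd4. The copies of the other 5 reach to within 3 bases of the gene's end. The count tables used here list none of the copies, so a UMI of mt-Co1, mt-Co2, mt-Atp6, mt-Co3 or mt-Nd3 could belong to either locus, and their values carry that uncertainty. The copies annotated there do not cover mt-Nd1, mt-Nd2, mt-Nd5 or mt-Cytb.

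Mitochondrially encoded molecules were a very small fraction of each library, and the post-mortem unfixed library held the most. The 10 transcripts together had 18302, 26144, 23038 and 77283 UMIs in the in vivo methanol-fixed, post-mortem methanol-fixed, in vivo unfixed and post-mortem unfixed libraries, or 244, 317, 351 and 1202 CPM (the counts-per-million scale, over all UMIs of the library). The post-mortem unfixed value was more than 3 times each of the others. At least one such UMI was seen in 51.4% and 51.1% of barcodes in the fixed libraries and in 37.4% and 54.1% of those in the in vivo and post-mortem unfixed ones.

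Complex I is the NADH dehydrogenase at the entry of the respiratory chain, and 5 of the members encode its membrane arm. mt-Nd1 had 22.9, 29.2, 26.8 and 98.0 CPM in the in vivo methanol-fixed, post-mortem methanol-fixed, in vivo unfixed and post-mortem unfixed libraries. mt-Nd4 had 18.0, 23.5, 29.9 and 118 CPM in the same order, and mt-Nd2 had 9.40, 11.4, 12.6 and 51.9. For all 3 the in vivo methanol-fixed library was lowest and the post-mortem unfixed library stood far above the rest. mt-Nd5 had 2.61, 3.56, 3.84 and 13.5 CPM, and mt-Nd3 had 0.573, 0.680, 0.396 and 1.52 CPM, from 43, 56, 26 and 98 UMIs.

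mt-Cytb, the only mitochondrially encoded subunit of complex III (the cytochrome bc1 complex), had 42.8, 51.2, 72.8 and 203 CPM in the in vivo methanol-fixed, post-mortem methanol-fixed, in vivo unfixed and post-mortem unfixed libraries. Complex IV is cytochrome c oxidase, and its catalytic core is made of mt-Co1, mt-Co2 and mt-Co3. mt-Co1 had 42.2, 57.1, 55.2 and 184 CPM, mt-Co2 had 28.9, 39.7, 44.2 and 169 CPM, and mt-Co3 had 49.7, 66.4, 72.5 and 220 CPM. mt-Atp6, which forms part of the proton channel of ATP synthase (complex V), had 26.9, 34.6, 33.0 and 143 CPM. The order of libraries differed slightly between members: for mt-Nd1, mt-Co1 and mt-Atp6 the post-mortem fixed library lay just above the in vivo unfixed one, and for mt-Co2, mt-Co3 and mt-Cytb it lay below.

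**Figure D1:**
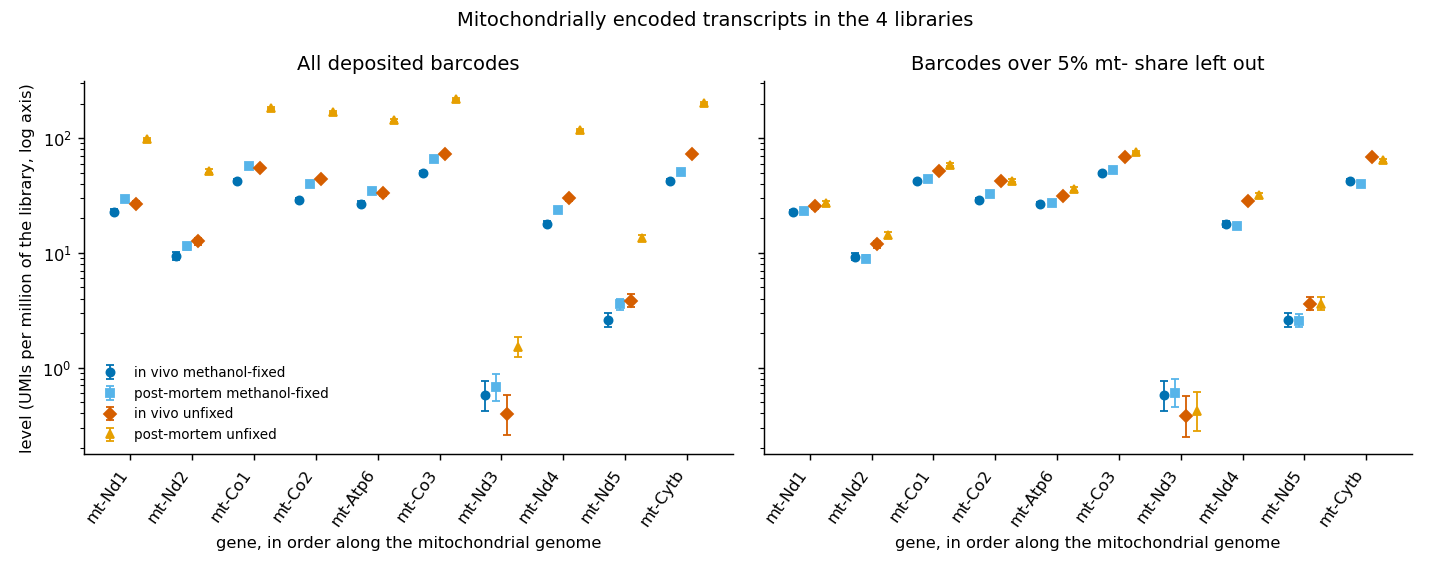
Level of each of the 10 transcripts, in CPM of the library on a log axis, in the 4 libraries; points are library values and bars are 95% counting intervals. In the post-mortem unfixed library every member stands above its value in the other libraries, from 1.52 CPM for mt-Nd3 to 220 CPM for mt-Co3.

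UMIs of a 3′ library count molecules whatever their length, so values divided by gene length are not an order of abundance. Undivided, mt-Co1 lay above mt-Co2 and mt-Atp6 in every library. Divided by gene length, mt-Co3 had the highest level in every library, at 63.4, 84.7, 92.4 and 281 CPM per kilobase in the in vivo methanol-fixed, post-mortem methanol-fixed, in vivo unfixed and post-mortem unfixed libraries. mt-Co2 followed at 42.3, 58.1, 64.6 and 247 CPM per kilobase, though in the in vivo unfixed library mt-Cytb, at 63.6, did not differ from it beyond counting error. mt-Atp6 had 39.5, 50.8, 48.5 and 209 CPM per kilobase, mt-Cytb 37.4, 44.7, 63.6 and 178, and mt-Co1 27.3, 37.0, 35.7 and 119. The complex I messages came after these: mt-Nd1 had 23.9, 30.5, 28.1 and 102 CPM per kilobase, mt-Nd4 13.05, 17.03, 21.7 and 85.4, and mt-Nd2 9.05, 10.98, 12.1 and 50.0. mt-Nd5 and mt-Nd3 were the lowest, at 1.43, 1.95, 2.11 and 7.40 and at 1.65, 1.95, 1.14 and 4.38 CPM per kilobase, and these last 2 exchanged places between libraries. The make-up of the pool was similar across libraries. Complex IV messages were 49.5%, 51.4%, 48.9% and 47.7% of the 10-transcript UMIs, complex I messages 21.9%, 21.5%, 21.0% and 23.5%, and mt-Atp6 11.02%, 10.9%, 9.40% and 11.9%. mt-Cytb was 17.5%, 16.1%, 20.7% and 16.9% of the pool, highest in the in vivo unfixed library.

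Methanol-fixed nuclei had lower levels of mitochondrially encoded transcripts than unfixed nuclei of the same harvest, and by far the larger gap was in the post-mortem pair. The sum of the 10 gave a log2 ratio, fixed over unfixed, of -0.53 (-0.55 to -0.50) in the in vivo pair and -1.92 (-1.94 to -1.90) in the post-mortem pair. In the in vivo pair mt-Cytb had -0.77 (-0.83 to -0.70), mt-Nd4 had -0.73 and mt-Nd1 had -0.23. In the post-mortem pair mt-Nd4 had -2.33 (-2.40 to -2.25), mt-Nd2 had -2.19 and mt-Co1 had -1.69. mt-Nd4 was thus among the most lowered members in both pairs, and mt-Nd1 and mt-Co1 among the least. mt-Nd3 was the least lowered of the 10 in the post-mortem pair, with -1.16 (-1.67 to -0.68). It was the exception in the in vivo pair, with 0.52 (-0.20 to 1.29), an interval that spans 0.

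Genes averaging at least 10 CPM over the 4 libraries were counted against a fold rule; 9801 genes passed, among them 8 members, while mt-Nd3 and mt-Nd5 were too low. No member was 2-fold lower in fixed nuclei in both pairs, where 2.28% of all genes were. At a smaller limit, a log2 ratio of at least 0.32 in size, 6 of the 8 were lower in both pairs (mt-Co1, mt-Co2, mt-Co3, mt-Cytb, mt-Nd2 and mt-Nd4), beside 14% of all genes. In the post-mortem pair alone all 8 were 2-fold lower, beside 2.53% of all genes. The median log2 ratio of the 8 was -0.48 in the in vivo pair and -2.02 in the post-mortem pair, against -0.023 and -0.021 over all genes tested.

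In vivo harvest likewise came with lower levels than post-mortem harvest, and here the gap was mostly in unfixed nuclei. The log2 ratio of the sum, in vivo over post-mortem, was -0.38 (-0.41 to -0.35) between the fixed libraries and -1.77 (-1.80 to -1.75) between the unfixed ones. No member was 2-fold lower in both pairs, beside 0.112% of all genes, and 6 of 8 were lower in both at the limit of 0.32 (mt-Co1, mt-Co2, mt-Co3, mt-Nd1, mt-Nd4 and mt-Atp6), beside 8.1%. Between unfixed libraries all 8 were 2-fold lower, beside 0.347% of all genes, and between fixed libraries none was, beside 0.143%. The median of the 8 was -0.37 between fixed and -1.90 between unfixed libraries, against -0.087 and -0.095 over all genes. The fixation and harvest comparisons share libraries, so these ratios are not independent of each other.

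Most of the post-mortem excess sat in a few barcodes. Barcodes in which mt- features exceeded 5% of the UMIs numbered 1, 51, 7 and 183 in the in vivo methanol-fixed, post-mortem methanol-fixed, in vivo unfixed and post-mortem unfixed libraries, which is 0.0131%, 0.470%, 0.0392% and 1.26% of barcodes. They held 0.404%, 21.3%, 5.44% and 70.6% of all UMIs of the 10 transcripts. A total of 138 barcodes of the post-mortem unfixed library were over 20% mt- share and held 60.4% of the transcripts' UMIs, while the post-mortem fixed library had 5 such barcodes, the in vivo unfixed library 1 and the in vivo fixed library 0. The barcodes nearest to the limit were at 6.02% and 4.58% in the post-mortem fixed library and at 5.09% and 4.42% in the post-mortem unfixed library.

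**Figure D2:**
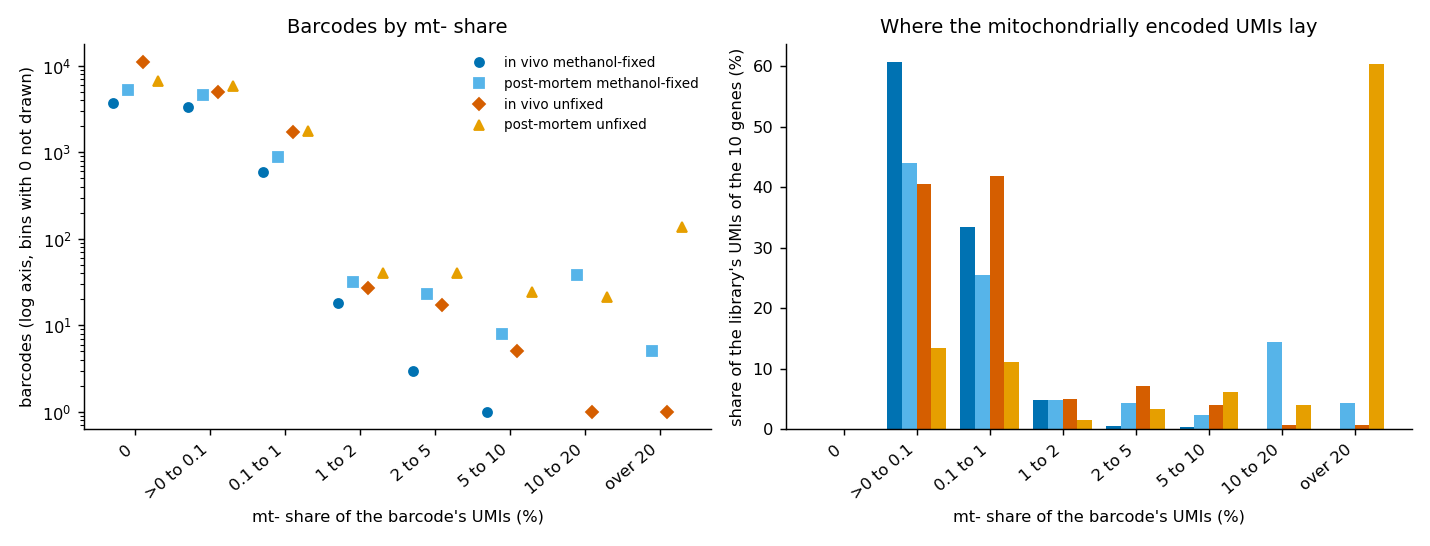
How the UMIs of the 10 transcripts were divided over barcodes of rising mt- share, in each of the 4 libraries. In the post-mortem unfixed library, barcodes over 20% mt- share hold 60.4% of the transcripts' UMIs; in the in vivo methanol-fixed library, barcodes over 5% hold 0.404%.

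Without these barcodes the 4 libraries were much closer. The 10 transcripts then had 243, 249.9, 332 and 355 CPM in the in vivo methanol-fixed, post-mortem methanol-fixed, in vivo unfixed and post-mortem unfixed libraries. The fixed-over-unfixed log2 ratio of the sum became -0.45 (-0.48 to -0.42) in the in vivo pair and -0.51 (-0.53 to -0.48) in the post-mortem pair, so the sums of both pairs were close, although in each pair the sign of the ratio differed between barcodes of different depth. The in vivo-over-post-mortem ratio became -0.041 (-0.070 to -0.012) between fixed libraries and -0.096 (-0.12 to -0.069) between unfixed ones.

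By member, mt-Cytb had 42.7, 40.2, 69 and 64.4 CPM in the retained barcodes of the in vivo methanol-fixed, post-mortem methanol-fixed, in vivo unfixed and post-mortem unfixed libraries, a log2 ratio of fixed over unfixed of -0.69 (in vivo) and -0.68 (post-mortem). mt-Nd4 had 17.9, 17.3, 28.3 and 31.7 CPM, with ratios of -0.66 and -0.87. mt-Nd1 had 22.8, 23.3, 25.5 and 27.2 CPM, with ratios of -0.17 and -0.22. For these 3 genes both fixed libraries lay below both unfixed ones, by a wide margin for the first 2 and a narrow one for mt-Nd1. mt-Nd3 had 0.573, 0.607, 0.381 and 0.421 CPM, with ratios of 0.58 (-0.16 to 1.36) and 0.51 (-0.18 to 1.26), so it was not lower in fixed nuclei in either pair, and neither difference was detectable at this depth. The other 6 members had ratios between -0.22 and -0.68, all below 0. At the limit of 0.32, 5 of 8 members were still lower in both pairs, beside 14.1% of all genes, with mt-Co1 no longer among them. For harvest the count was 0 of 8, beside 7.97%.

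The over-5% barcodes were small. Their median depth was 694 UMIs in the post-mortem fixed library and 846 in the post-mortem unfixed one, against 6541 and 4018.5 in the remaining barcodes of the same libraries. Their median mt- share was 12.9% in the post-mortem fixed library and 27.5% in the post-mortem unfixed one. Malat1, a long noncoding RNA that stays in the nucleus, was a median 0.641% of their non-mt- UMIs in the post-mortem fixed library, against 13.7% in retained barcodes under 2000 UMIs. Over-5% barcodes of the post-mortem unfixed library had 4.98%, against 9.54% in retained ones under 2000 UMIs. Malat1 was therefore lower in high-share barcodes of both libraries, and much lower in the fixed one.

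Nuclear-encoded subunits of the same complexes were higher in the over-5% barcodes, as a share of non-mt- UMIs. In the post-mortem fixed library 10 complex IV subunits were 1.42% of these UMIs in over-5% barcodes, against 0.067% in retained barcodes under 2000 UMIs, and 15 complex V subunits were 0.646% against 0.078%. In the post-mortem unfixed library complex IV was 0.991% against 0.070% and complex V 0.502% against 0.076%. Complex I, with 37 listed subunits, was 1.02% against 0.130% in the fixed library and 0.759% against 0.138% in the unfixed one. The 42 ribosomal protein genes of the cytosol showed the same direction, at 4.25% against 0.227% (fixed) and 4.91% against 0.167% (unfixed). The list of mitochondrial RNA machinery, 28 nuclear genes that copy, process and degrade the mitochondrial messages, differed little, at 0.056% against 0.067% (fixed) and 0.065% against 0.057% (unfixed).

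Genes with at least 30 UMIs in the over-5% barcodes of both post-mortem libraries were ranked by the smaller of their 2 log2 ratios, over-5% over the rest; the filter admits mostly genes that are high there, so the order is a description. The first was Aldoc, a glycolytic aldolase found mainly in astrocytes, with 1949 CPM against 11.6 in the post-mortem fixed library and 1830 against 8.49 in the unfixed one. It was followed by Rplp1 of the ribosome and Ndrg2. Fth1, the heavy chain of ferritin, came next, with 9327 against 103 CPM (fixed) and 10274 against 62.3 CPM (unfixed). After it came the metallothionein Mt1, the ribosomal Rps29, the acyl-CoA binding protein Dbi and the ribosomal Rpl26. Markers of several cell types were also higher in the over-5% barcodes of the post-mortem fixed library than in its retained barcodes under 2000 UMIs, as shares of non-mt- UMIs. Medium spiny neuron markers were 0.273% against 0.024% (8 of 10 seen in over-5% barcodes), excitatory neuron markers 0.070% against 0.0078% (7 of 10), ependymal and choroid markers 0.064% against 0.0021% (4 of 6) and astrocyte markers 0.187% against 0.0996% (10 of 10). A list of 20 neuronal cytoplasmic genes was 2.86% against 0.160%. Oligodendrocyte markers were lower, at 0.145% against 0.911% (5 of 10 seen), and so were microglia markers, at 0.070% against 0.402% (8 of 12). The same gaps were smaller in the unfixed library: medium spiny neuron markers had 0.149% against 0.139%, astrocyte markers 0.089% against 0.051%, neuronal cytoplasmic genes 1.22% against 0.455% and oligodendrocyte markers 0.314% against 0.437%. By the marker gate used for cell classes, 43 of 51 over-5% barcodes of the post-mortem fixed library had no class and 7 were medium spiny neuron-like; of 183 in the post-mortem unfixed library 164 had none, 10 were oligodendrocyte-like and 6 medium spiny neuron-like. Shallow retained barcodes can themselves be low in neuronal markers. In the in vivo methanol-fixed library, those under 2000 UMIs had 0.017% medium spiny neuron markers, against 0.171% in all retained barcodes. Excitatory neuron markers had 0.0098% against 0.077% there, and neuronal cytoplasmic genes 0.190% against 0.762%. The marker gaps above were taken against shallow barcodes only and may differ against all retained ones. What part cell type plays in the mt- share was not tested.

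**Figure D3:**
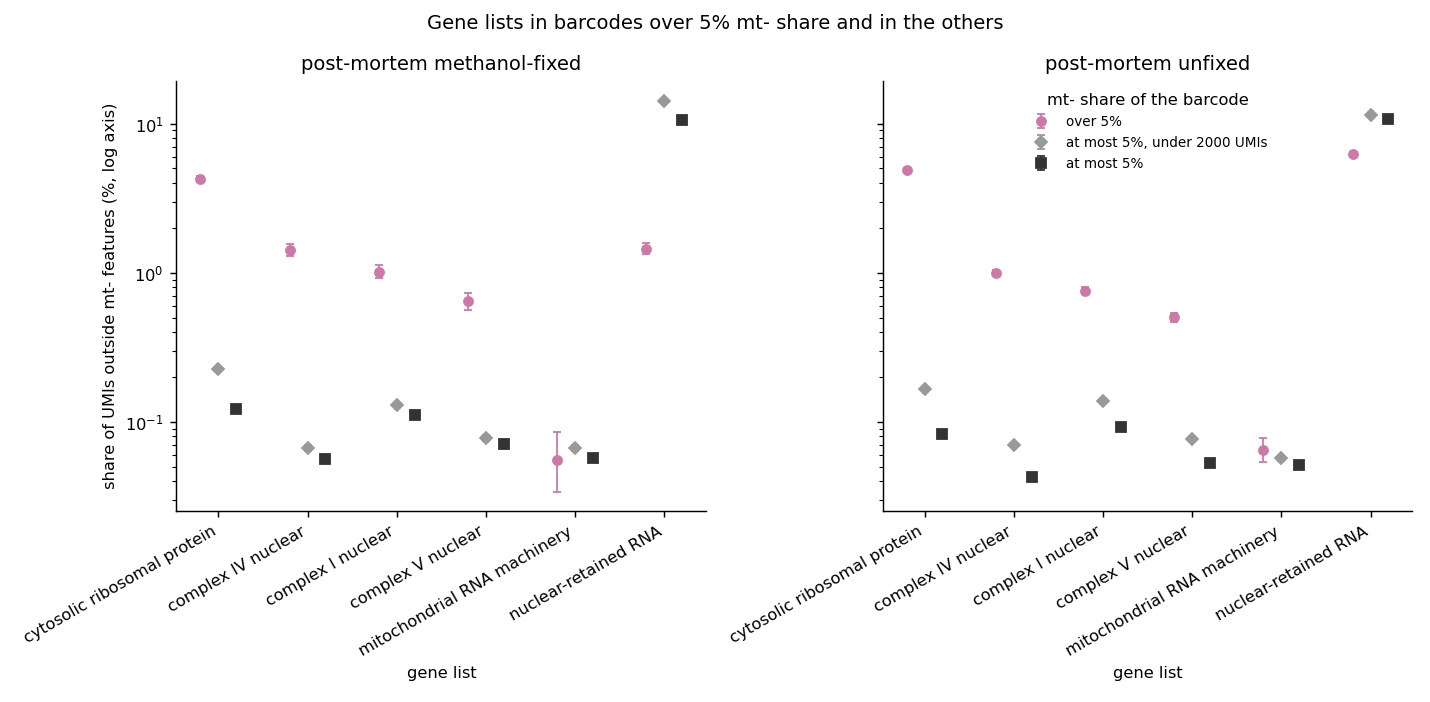
Summed share of non-mt- UMIs for gene lists in over-5% barcodes, in retained barcodes under 2000 UMIs and in all retained barcodes of the post-mortem libraries, on a log axis with 95% counting intervals. Ribosomal protein and respiratory chain genes are higher in over-5% barcodes and nuclear-retained RNA is lower.

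The members were not raised in equal proportion in these barcodes. In the post-mortem unfixed library mt-Co2 was 14.9% of the 10-transcript UMIs in over-5% barcodes against 12.02% in the rest, and mt-Atp6 was 12.6% against 10.2%. mt-Co3 was lower in over-5% barcodes, at 17.1% against 21.4%. In the post-mortem fixed library the direction for mt-Co2 was the opposite, 10.2% against 13.1%, while mt-Co1 was 19.8% against 17.5% and mt-Nd4 9.12% against 6.93%. mt-Nd4 was higher in the over-5% barcodes of the unfixed library too, at 10.2% against 8.92%. By point values mt-Nd2, mt-Nd5 and mt-Atp6 also had a higher share there in both libraries. mt-Atp6 differed by little in the fixed library, at 10.96% against 10.88%. The intervals of the other members named overlapped in both libraries. mt-Nd2 had 3.71% against 3.56% (fixed) and 4.45% against 4.02% (unfixed), and mt-Nd5 1.46% against 1.03% and 1.17% against 1.02%.

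Of the 7 over-5% barcodes of the in vivo unfixed library, 2 were rich in haemoglobin. The 7 together held 1240 UMIs of 4 haemoglobin genes, the markers of red blood cells, 9.33% of their non-mt- UMIs with 4 of 4 genes seen, and those 2 accounted for 862 and 376 of them. The same genes were 0.011% of non-mt- UMIs in the over-5% barcodes of each post-mortem library. The part of red blood cells in the in vivo count was not tested.

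Barcodes were then gated into cell classes by markers: a class was given where at least 3 different markers of it were seen and every other class had at most 1 in 3 of that number, and over-5% barcodes were left out. The names rest on these lists alone. For 6 of 11 classes there were at least 50 barcodes in every library, and 55.1%, 48.8%, 63.7% and 59.7% of barcodes in the in vivo methanol-fixed, post-mortem methanol-fixed, in vivo unfixed and post-mortem unfixed libraries had no class. The astrocyte-like class was well separated by its markers: Slc1a2, a glutamate transporter of astrocytes, had 4955 to 6418 CPM in astrocyte-like barcodes against 20.04 to 399 CPM in the other 5 classes, over the 4 libraries. Among neurons it depended on the gene. Camk2a, a kinase used here for excitatory neurons, had 577 to 890 CPM in that class against up to 512 CPM in medium spiny neuron-like barcodes. Gad1 had 192 to 244 CPM in interneuron-like barcodes, up to 124 CPM in medium spiny neuron-like ones and 2.11 to 5.73 CPM in excitatory neuron-like ones.

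The 3 glial classes had higher mitochondrial levels than the 3 neuronal classes in the 2 fixed libraries and the post-mortem unfixed library. The in vivo unfixed library kept this order for astrocyte-like and oligodendrocyte-like barcodes, while its microglia-like level, 304 (263 to 350) CPM, did not differ beyond counting error from its interneuron-like level, 297 (270 to 325) CPM; with a gate of 2 markers they were 305 and 307 CPM. Astrocyte-like barcodes had 645, 614, 654 and 685 CPM of the 10 transcripts in the in vivo methanol-fixed, post-mortem methanol-fixed, in vivo unfixed and post-mortem unfixed libraries. Oligodendrocyte-like barcodes had 500.4, 638, 641 and 828 CPM, and microglia-like barcodes 314, 656, 304 and 1093 CPM. Astrocyte-like barcodes were thus nearly level across libraries once over-5% barcodes were left out; with all barcodes the post-mortem unfixed value was 1929 CPM, through 1 such barcode. Microglia-like barcodes were higher in both post-mortem libraries than in both in vivo ones. Excitatory neuron-like barcodes had 189, 147, 258 and 143 CPM, medium spiny neuron-like barcodes (the projection neurons of the striatum) 192, 225, 255 and 293 CPM, and interneuron-like barcodes 209, 135, 297 and 327 CPM. The astrocyte-like level was 3.38, 3.25, 2.52 and 2.73 times that of the 3 neuronal classes together, and the microglia-like level 1.65, 3.47, 1.17 and 4.35 times.

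**Figure D4:**
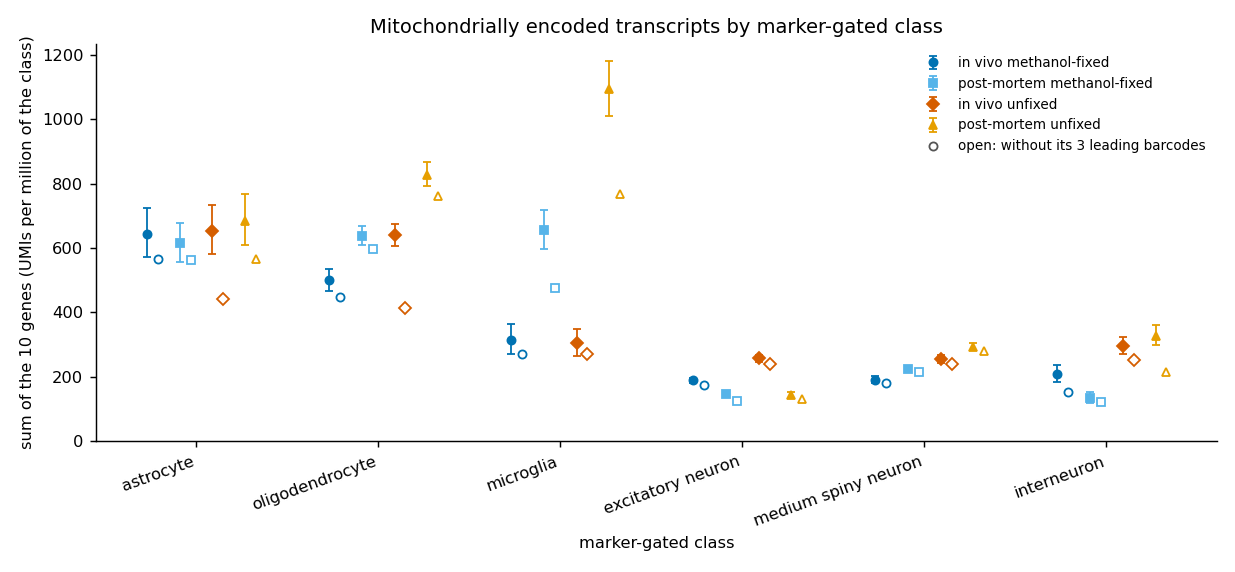
Level of the 10 transcripts in CPM of the class in the 6 marker-gated classes, by library, with 95% counting intervals. Astrocyte-like, oligodendrocyte-like and microglia-like barcodes lie above the neuron-like ones, except that microglia-like and interneuron-like intervals overlap in the in vivo unfixed library; microglia-like values reach 656 and 1093 CPM in the post-mortem libraries.

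Depth moved with this contrast. Glia-like barcodes were shallow, with median depths of 785 to 2198 UMIs over the 3 classes and 4 libraries, and neuron-like ones deep, with 3135.5 to 12178.5. With each barcode thinned to 1000 UMIs and shallower ones left out, the share of astrocyte-like barcodes with at least one mitochondrial UMI was 38.1%, 38.3%, 29.5% and 37.1% in the in vivo methanol-fixed, post-mortem methanol-fixed, in vivo unfixed and post-mortem unfixed libraries, and that of excitatory neuron-like barcodes 14.0%, 10.99%, 16.6% and 12.3%. Thinning left out 7, 13, 70 and 13 astrocyte-like and 0, 0, 3 and 5 excitatory neuron-like barcodes. Oligodendrocyte-like barcodes had 26.3%, 30.2%, 25.2% and 39.4% with 137, 316, 973 and 416 left out, and microglia-like barcodes 23.8%, 38.4%, 16.4% and 42.6% with 127, 281, 481 and 284 left out. Medium spiny neuron-like barcodes had 14.8%, 14.8%, 14.9% and 21.5% with 0, 1, 33 and 70 left out. The glial shares stayed above the neuronal ones in 3 of the 4 libraries; in the in vivo unfixed library the microglia-like share was 16.4% and the interneuron-like share 19.1%. Few neuron-like barcodes were as shallow as glia-like ones. Among barcodes of 1000 to under 2000 UMIs the post-mortem unfixed library had 973, 893 and 1444 CPM in astrocyte-like, oligodendrocyte-like and microglia-like barcodes. It had 1368 (923 to 1953) CPM in 14 excitatory neuron-like, 666 CPM in medium spiny neuron-like and 555 CPM in interneuron-like barcodes of that depth. The in vivo unfixed library had 553, 454 and 263 CPM in the same glial classes. Its interneuron-like, excitatory neuron-like and medium spiny neuron-like barcodes of that depth had 455, 365 and 215 CPM. The in vivo fixed library had 910, 586 and 343 CPM in the glial classes, against 154 (32 to 449) CPM in 14 interneuron-like barcodes. The post-mortem fixed library had 864, 693 and 1266 CPM, against 425 (226 to 727) CPM in 18 medium spiny neuron-like barcodes. At matched depth the glial excess was thus not uniform in the unfixed libraries, and in the fixed ones it rested on few neuron-like barcodes. Without thinning the shares were 54.3%, 58.3%, 36.2% and 57.3% for astrocyte-like barcodes and 58.8%, 48.9%, 43.95% and 45.6% for excitatory neuron-like ones, and their order then differed between the in vivo and post-mortem libraries.

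Some of the class values rested on few barcodes. In the in vivo unfixed library a single barcode held 312 of 1363 mitochondrial UMIs of the oligodendrocyte-like class (22.9%), and in the post-mortem unfixed library a single one held 29.8% of those of the interneuron-like class. With the 3 leading barcodes of each class left out, astrocyte-like levels were 566, 562, 443 and 565 CPM and microglia-like levels 269.8, 477, 269.9 and 768 CPM, in the in vivo methanol-fixed, post-mortem methanol-fixed, in vivo unfixed and post-mortem unfixed libraries. The glial values still lay above the neuronal ones, though in the in vivo unfixed library only by 269.9 CPM in microglia-like against 252 CPM in interneuron-like barcodes.

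Within classes, the fixed-over-unfixed difference was not uniform. Medium spiny neuron-like barcodes had log2 ratios of -0.41 in the in vivo pair and -0.38 in the post-mortem pair, and oligodendrocyte-like barcodes -0.36 and -0.38. Without the 3 leading barcodes of each class the in vivo oligodendrocyte-like ratio turned to 0.12. Astrocyte-like barcodes had -0.020 (-0.26 to 0.22) and -0.16 (-0.38 to 0.064), which became 0.35 and -0.0082 without them. Excitatory neuron-like barcodes had -0.45 and 0.041, of which the second turned to -0.089, microglia-like ones 0.044 and -0.73, and interneuron-like ones -0.51 and -1.27, which became -0.73 and -0.81 without them. For harvest, microglia-like barcodes were lower in vivo in both pairs, with -1.06 (-1.32 to -0.82) between fixed and -1.84 (-2.08 to -1.61) between unfixed libraries, and -0.82 and -1.51 without their leading barcodes. Medium spiny neuron-like barcodes, with -0.23 and -0.20, and oligodendrocyte-like ones, with -0.35 and -0.37, were also lower in vivo in both pairs. Astrocyte-like ratios, 0.071 and -0.068, and interneuron-like ratios, 0.62 and -0.14, differed in sign between the pairs. Excitatory neuron-like barcodes were higher in vivo, with 0.35 and 0.85, and 0.49 and 0.87 without their leading barcodes. Class sums cannot tell more molecules per nucleus from a few nuclei with many.

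When the 4 libraries were summed, mt-Co3 kept much the same proportion across classes, at 20% to 22% of the 10-transcript UMIs in each. Other members differed between classes in these sums, to which the libraries contribute unequally. mt-Nd1 was 9.12% (8.41 to 9.87) in excitatory neuron-like against 6.81% (6.18 to 7.49) in oligodendrocyte-like barcodes. mt-Nd4 was 10.0% (8.40 to 11.8) in astrocyte-like against 7.30% (6.66 to 7.99) in excitatory neuron-like ones. By library, mt-Nd4 was 7.69%, 8.80%, 10.5% and 13.4% in astrocyte-like barcodes and 6.73%, 5.04%, 8.84% and 8.55% in excitatory neuron-like ones, in the in vivo methanol-fixed, post-mortem methanol-fixed, in vivo unfixed and post-mortem unfixed libraries. These intervals overlapped in every library. In the same order mt-Nd1 was 10.0%, 10.5%, 8.11% and 6.90% in excitatory neuron-like barcodes. It was 7.85%, 6.55%, 6.60% and 6.74% in oligodendrocyte-like ones. The mt-Nd1 intervals were apart only in the post-mortem methanol-fixed library.

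Below 8000 UMIs, shallower barcodes had higher mitochondrial levels in every library, over-5% barcodes left out. In barcodes of 500 to under 1000 UMIs the level was 847, 1048, 534 and 1270 CPM in the in vivo methanol-fixed, post-mortem methanol-fixed, in vivo unfixed and post-mortem unfixed libraries. In barcodes of 4000 to under 8000 UMIs it was 215, 231, 252 and 283 CPM. The in vivo unfixed library stood apart at the deep end, with 1058 CPM in barcodes of at least 16000 UMIs, where there were 63 barcodes and 3 of them held 48.5% of the mitochondrial UMIs; without those 3 it had 574 CPM. The fixed-over-unfixed ratio of the in vivo pair was 0.67, 0.65, 1.07, -0.23, -1.23 and -2.09 from the shallowest to the deepest of 6 bins, so its sign depended on depth. In the post-mortem pair it was -0.28, -0.091, 0.43, -0.29, -0.35 and -0.54.

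**Figure D5:**
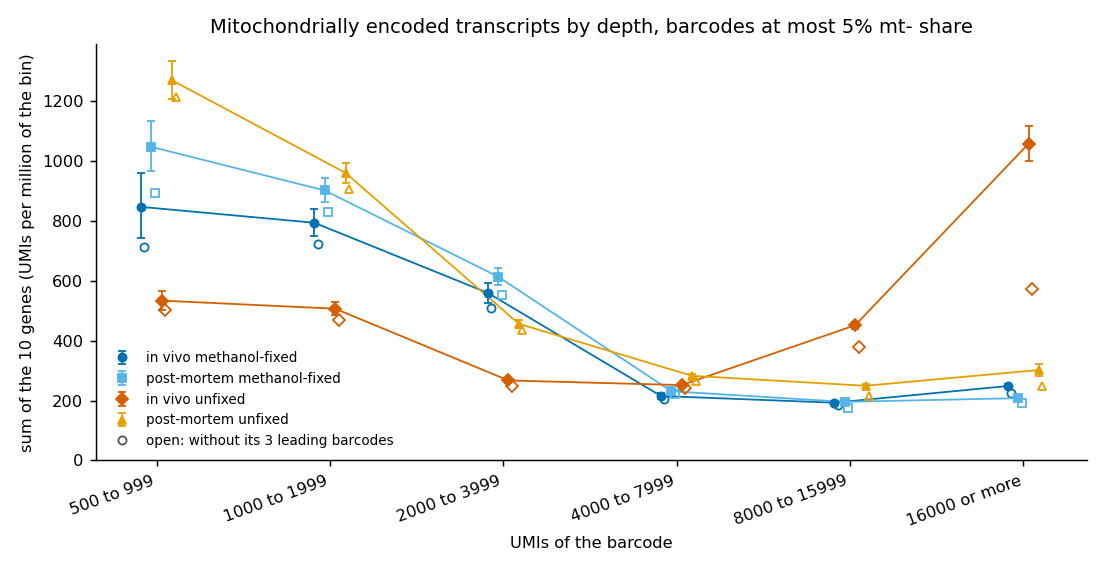
Level of the 10 transcripts in CPM in 6 bins of barcode depth, by library, over-5% barcodes left out, on a linear axis. Below 8000 UMIs the shallower barcodes carry the higher levels in all 4 libraries, and the in vivo unfixed library stands apart at the deep end with 1058 CPM in its 63 barcodes of at least 16000 UMIs.

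Between fixed and unfixed nuclei the nuclear-encoded partners differed, by their medians, in the opposite direction from the mitochondrially encoded members. Of 75 listed nuclear genes of the respiratory chain and ATP synthase, 71 averaged at least 10 CPM, and 34 of these were higher in fixed nuclei in both pairs at the limit of 0.32, beside 11.6% of all genes, while 0 were lower. Their median log2 ratio, fixed over unfixed, was 0.55 in the in vivo pair and 0.32 in the post-mortem pair, where the 8 measured members had -0.48 and -2.02, or -0.41 and -0.47 without over-5% barcodes. By complex, 15 of 34 complex I genes, 1 of 4 complex II genes, 6 of 9 complex III genes, 3 of 10 complex IV genes and 9 of 14 complex V genes were higher. Atp5k, a small membrane subunit of ATP synthase, was the only one 2-fold higher in both, with 1.07 and 1.28, beside 0.265% of all genes. Cyc1, the cytochrome c1 of complex III and so a partner of mt-Cytb, had 0.91 and 0.67. Atp5b, a catalytic subunit of ATP synthase, had 0.58 and 0.40. Other abundant subunits were flat or lower: Ndufs1 had -0.11 and -0.13, Ndufa10 0.010 and -0.013, Uqcrc1 -0.014 and -0.12, and Sdhb -0.33 and -0.30. For harvest 7 of the 71 were lower in vivo in both pairs at the limit of 0.32, close to the 8.1% of all genes. Higher were 0, beside 5.12% of all genes. Their medians were -0.19 between fixed and -0.34 between unfixed libraries, against -0.087 and -0.095 over all genes. The 8 members had -0.37 and -1.90. Without over-5% barcodes the members had -0.029 and -0.15, and 0 of 8 were lower in both pairs at that limit.

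Of the mitochondrial RNA machinery, 17 of 28 genes were measured and 4 were higher in fixed nuclei in both pairs at the limit of 0.32, beside 11.6% of all genes. Slirp, which with Lrpprc binds and stabilises the mitochondrial messages, was 2-fold higher, with 1.30 in the in vivo pair and 1.22 in the post-mortem pair. Lrpprc itself had 0.14 and 0.079. Pnpt1, the polynucleotide phosphorylase that degrades them, had 0.18 and 0.018. The ribosomal protein list, with 23 of 39 measured genes higher in fixed nuclei in both pairs at that limit beside the same 11.6%, differed in the direction of the respiratory chain list and not of the members.

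Over the 24 sums of 6 classes in 4 libraries, the genes whose log2 level was most like that of the 10 transcripts together were Mettl23, Mcm9, Anapc16, Ston2, Dock1, Tsc22d4, Zfyve26 and Rbl2, with Pearson r of 0.86 to 0.89 against a median of 0.094 over 9793 genes. The sums share libraries and differ in depth, and the transcripts' own r with log2 median depth was -0.82. Each of 8 members had an r of 0.95 to 0.98 with the sum of the others, mt-Nd5 had 0.81 and mt-Nd3, with the fewest UMIs, 0.33. The sum of the nuclear respiratory chain list had 0.48, and that of the mitochondrial RNA machinery 0.41.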

How the data were processed

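The deposited matrices hold raw UMI counts per gene and barcode, made by the authors from SeekOne DD 3′ reads; the build, mm10, comes from the submitters' processing notes, and the aligner settings, cell caller and strand rule are not given in the sources used here. Minimum depth was 500 to 501 UMIs. The members and lists were chosen with earlier results of these data known. Levels are CPM of the library or class. Ratios used a pseudocount of 0.5 counts with an exact conditional interval, shares an exact Clopper-Pearson interval and sums an exact Poisson interval. With 1 library a group there was no test; genes averaging 10 CPM or more were counted past 2-fold, or a log2 ratio of 0.32, in both pairs. Named genes were the members, the leading over-5% genes, the genes most like the members by r and list examples; predicted genes were skipped. Barcodes were used as deposited; Scrublet doublets (10.96%, 9.11%, 15.5% and 13.4% in the in vivo methanol-fixed, post-mortem methanol-fixed, in vivo unfixed and post-mortem unfixed libraries) were removed only as an alternative. The scripts were tested on simulated data. Alternatives were the removal of barcodes over 2%, 5% or 10%, other scalings, the filter of 500 UMIs and 300 genes, 2 markers, all 13 mt- features, a pseudocount of 1 and equal class weights. Annotation and sequence were read from the mm10 reference. Python 3.11.15, numpy 2.4.6, scipy 1.17.1, pandas 2.3.3, scanpy 1.11.5, biopython 1.88 and matplotlib 3.10.9 were used.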

Additional observations from a re-analysis of the deposited data

How the results depend on the processing

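Log2 ratios of the 10-transcript sum are given as fixed over unfixed (in vivo pair, then post-mortem pair) and in vivo over post-mortem (fixed pair, then unfixed pair). With all barcodes they were -0.53, -1.92, -0.38 and -1.77. They became -0.35, -0.42, 0.033 and -0.038 without barcodes over 2%, so that the fixed harvest pair changed sign. Without barcodes over 5% they were -0.45, -0.51, -0.041 and -0.096, and the same under the filter of 500 UMIs, 300 genes and 5%. Without barcodes over 10% they were -0.51, -0.73, -0.079 and -0.31. Without Scrublet doublets they were -0.48, -0.53, -0.090 and -0.14. Leaving Malat1 out of the total gave -0.41 and -1.81 for harvest. Median-of-ratios scaling gave -1.90, -0.32 and -1.71 for all but the in vivo fixation pair. Weighting classes equally gave -0.23, -0.48, -0.24 and -0.48. Weighting depth bins equally, chosen after seeing the data, gave -0.19, -0.19, -0.081 and -0.074. All 13 mt- features and a pseudocount of 1 moved none beyond its interval. The post-mortem fixation value and the harvest values of both the fixed and the unfixed pair therefore rest largely on over-5% barcodes. The in vivo fixed library had 1 such barcode, 4 over 2% and 0 over 10%; the in vivo unfixed library had 7, 24 and 2. Members lower in both pairs numbered 6 at a log2 limit of 0.32 and 0 at 2-fold, for fixation and for harvest, and without over-5% barcodes 5 (fixation) and 0 (harvest) at 0.32; the counts without over-5% barcodes, and the omission of 3 leading barcodes per class, were also chosen after seeing the data. By point values all 3 glial classes exceeded all neuronal ones in 4 libraries, in 3 with 2 markers, in 3 after thinning and in 4 in the other settings. The causes of these changes were not tested. mt-Nd3 and mt-Nd5 had too few UMIs for the fold rule. No paired analysis was possible because each group had 1 library.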

Other observations

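Vascular-like barcodes, too few to describe as a class (10, 27, 24 and 30 in the in vivo methanol-fixed, post-mortem methanol-fixed, in vivo unfixed and post-mortem unfixed libraries), had 3782, 10334, 9493 and 10262 CPM of the 10 transcripts, which was 20.1, 54.6, 36.5 and 40.9 times the level of the 3 neuronal classes together. The in vivo methanol-fixed value rested on 39 UMIs. Vascular-like barcodes were shallow, with median depths of 929 UMIs in the in vivo and 893 UMIs in the post-mortem methanol-fixed library. Neuron-like barcodes were far deeper, and these folds were not matched for depth. The 3 leading barcodes held 74.4%, 42.7%, 50.6% and 52.2% of these UMIs, and without them the levels were 1369, 7610, 5973 and 7356 CPM. Barcodes with an mt- share between 1% and 5% numbered 21, 55, 44 and 80 in the same libraries, and 23.8%, 21.8%, 25% and 16.3% of them held at least 2 vascular markers, against 1.08%, 0.894%, 0.455% and 0.682% of barcodes at or below 1%.

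In retained barcodes the UMIs of the members were concentrated: the top 1% of barcodes held 20.3%, 29.5%, 29.0% and 26.0% of them in the in vivo methanol-fixed, post-mortem methanol-fixed, in vivo unfixed and post-mortem unfixed libraries. Per UMI of the nuclear respiratory chain list, oligodendrocyte-like barcodes held 0.172, 0.214, 0.231 and 0.282 mitochondrial UMIs in these libraries, microglia-like barcodes 0.113, 0.198, 0.104 and 0.324, excitatory neuron-like barcodes 0.088, 0.061, 0.170 and 0.078, medium spiny neuron-like barcodes 0.073, 0.082, 0.138 and 0.140, and interneuron-like barcodes 0.063, 0.035, 0.121 and 0.104. Microglia-like barcodes of the in vivo unfixed library thus lay below all 3 neuronal classes.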
